A study of Mus musculus with 21 samples.

Results

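The genes described here encode enzymes of the mevalonate arm of cholesterol synthesis, the stretch of the pathway that turns acetyl-CoA into squalene. The 8 genes are Acat2, Hmgcs1, Mvk, Pmvk, Mvd, Idi1, Fdps and Fdft1. They were found by symbol in a table of exon read counts that listed 38087 genes, and all 8 were among the 18334 genes that passed the filter on low counts.

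The tissue was epididymal white fat, the visceral depot beside the epididymis, of male C57BL/6j mice aged 15 to 16 weeks that ate ad libitum. Germ-free mice, which carry no microbes, gave 9 libraries: 1 at zeitgeber time (ZT, hours after lights on) 2, 2 at ZT06, 2 at ZT10, 1 at ZT14, 1 at ZT18 and 2 at ZT22. Conventional mice, raised with a microbiota, gave 12 libraries, 2 at each of the same 6 times. Nothing in the labels ties a library to its own mouse. Every p-value below therefore measures the spread between libraries, which may be technical.

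Mevalonate synthesis starts with the joining of acetyl units in the cytosol and runs through isopentenyl and farnesyl diphosphates, which also feed protein prenylation, ubiquinone and dolichol. The committed sterol branch begins at squalene. When sterols in the endoplasmic reticulum are low, the SCAP protein carries the transcription factor SREBP-2 to the Golgi for cleavage, and the released fragment binds sterol regulatory elements together with NF-Y and Sp1 at promoters of this pathway. INSIG1 holds the SCAP complex back when sterols are plentiful. Fat cells store a large pool of unesterified cholesterol and make little of it compared with liver.

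Transcripts of several mevalonate enzymes were more abundant in germ-free than in conventional fat. Over all times 4 of the 8 genes rose in germ-free fat (Acat2, Pmvk, Fdps and Fdft1), none fell, and 4 did not pass the test. In the dark phase all 8 rose, with log2 fold changes between 0.48 and 1.37. In the light phase none of the 8 passed, but the test of the difference between the phases called none of them either. The dark phase count fell to 1 without the only germ-free ZT18 library and to 0 without that library and germ-free ZT22 replicate 2 together. Without both, 0.0269% of all genes tested were higher in the dark phase, against 10.7% with all libraries. The share for the single removal is not given here. The dark phase count was also 0 with each library's trend of level with gene length as a covariate. For that fit, too, the share of all genes is not given here.

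Total counts per library lay between 24388294 and 48348181. Summed adipocyte markers, all 6 of them detected, ran from 14090 to 22490 counts scaled to library size (CPM, the usual normalised count) in germ-free libraries and from 12410 to 19410 CPM in conventional libraries. Germ-free ZT22 replicate 2 was the library that stood apart for these genes: it had the highest value of all 21 libraries for 7 of the 8, a position it held for 11.9% of all genes tested. Germ-free ZT18 replicate 2 had the highest value for the remaining gene, Mvk. Counts of members and the main values of related genes are also given without these libraries.

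In GRCm38 the genes are spread over 6 chromosomes. Acat2 lies at chr17:12942890-12960747, Hmgcs1 at chr13:119690379-119708260, Mvk at chr5:114444269-114460591 and Pmvk at chr3:89454541-89469013. Mvd lies at chr8:122433601-122443422, Idi1 at chr13:8885501-8892451, Fdps at chr3:89093588-89101959 and Fdft1 at chr14:63145150-63179578. Values are reads over the annotated exons of each gene.

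**Figure D1:**
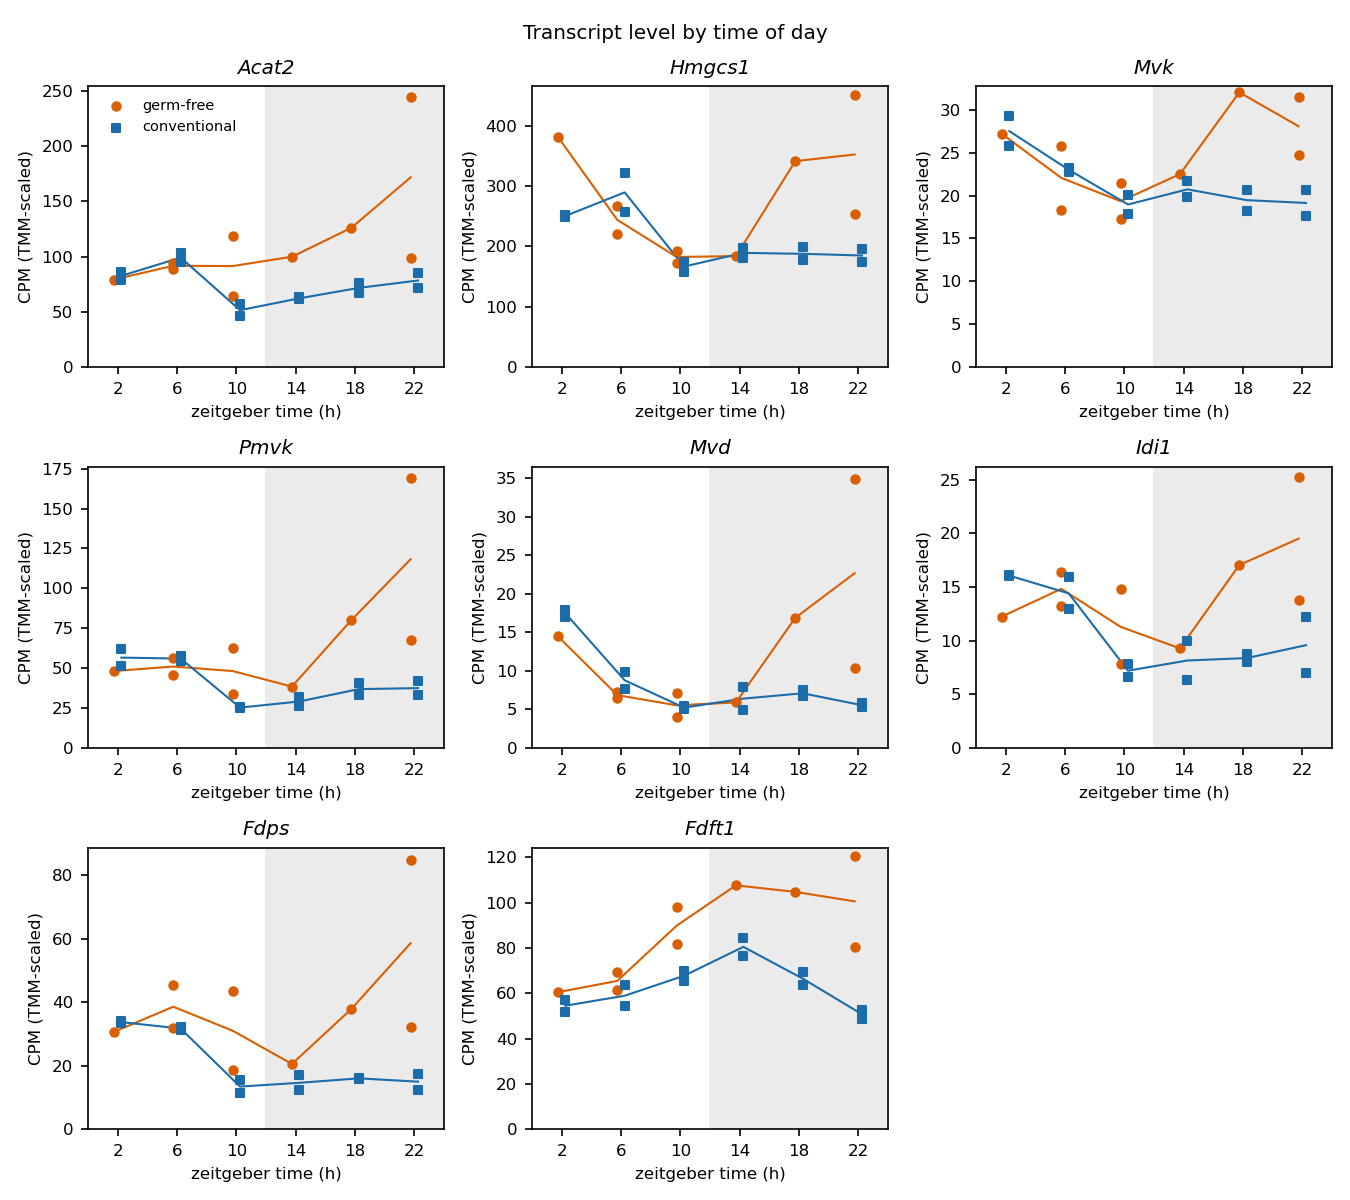
Transcript level (CPM, scaled by TMM) of the 8 mevalonate genes against zeitgeber time in hours. Circles are germ-free libraries, squares are conventional libraries, lines join the means at each time, and shading marks the dark phase. At ZT22 both germ-free circles lie above both conventional squares for all 8 members, and the upper circle for Pmvk stands at 169 CPM.

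Per kilobase of exon, Hmgcs1 was the most abundant member, at 84.6 ± 30.1 CPM per kb in germ-free fat and 65.4 ± 14.9 in conventional fat (SD, n = 9 and n = 12). Acat2 and Pmvk came next, at 44.3 ± 20.8 and 44.2 ± 27.0 CPM per kb in germ-free fat. In conventional fat the same genes stood at 29.2 ± 6.48 for Acat2 and 26.6 ± 8.70 for Pmvk. Fdft1 (30.5 ± 7.55 germ-free, 22.1 ± 3.78 conventional) and Fdps (28.5 ± 14.6 germ-free, 15.4 ± 6.74 conventional) followed. Mvk stood at 9.17 ± 1.96 CPM per kb in germ-free fat and 8.03 ± 1.28 in conventional fat. Mvd (6.78 ± 5.44 germ-free, 4.79 ± 2.54 conventional) and Idi1 (4.12 ± 1.45 germ-free, 3.04 ± 1.09 conventional) were the least abundant. Only the steps below Hmgcs1 and below Fdps were larger than the SD of both neighbouring genes in both groups. Acat2, Pmvk, Fdft1 and Fdps therefore formed a middle level whose neighbours did not differ beyond their spread.

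The comparison over all times asked whether the absence of microbes went with a different level of these transcripts. It was fitted with edgeR's quasi-likelihood test on all 21 libraries with time of day in the model, and p-values were adjusted over all 18334 genes. Of all genes tested, 15.2% were higher and 11.5% were lower in germ-free fat at an adjusted p under 0.05, against 4 and 0 of the 8 mevalonate genes. All 8 had a positive log2 fold change, and their median was 0.47, against a median of 0.03 over all genes tested. In bulk tissue fewer cells of a type and less RNA per cell cannot be told apart.

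Fdps, the farnesyl diphosphate synthase that supplies both sterols and prenyl groups, had the largest log2 fold change of the 8. It ran from 18.6 CPM at the lowest through a median of 32.3 to 84.9 CPM in the 9 germ-free libraries, and from 11.3 through 16.5 to 34.0 CPM in the 12 conventional libraries. The ranges overlapped, with the 4 conventional libraries of ZT02 and ZT06 close to the germ-free median. The log2 fold change was 0.92 ± 0.25 (SE, edgeR adjusted p = 0.0137). Fdft1, squalene synthase, which commits farnesyl diphosphate to sterols, had the smallest adjusted p of the 8. Its lowest, median and highest values were 60.5, 81.6 and 121 CPM in germ-free fat and 48.7, 63.5 and 84.6 CPM in conventional fat, with a log2 fold change of 0.47 ± 0.10 (edgeR adjusted p = 0.00227). At each time except ZT06 every germ-free value of Fdft1 lay above both conventional values. Fdps and Fdft1 kept their calls when any single library was left out, with adjusted p up to 0.0480 for Fdps and 0.0127 for Fdft1.

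Acat2, the cytosolic thiolase that joins 2 acetyl-CoA molecules, had 64.3, 98.9 and 244.5 CPM at the lowest, median and highest germ-free library and 46.4, 74.0 and 103.5 CPM at the conventional ones. Only the upper end of the germ-free range lay outside the conventional range. Its log2 fold change was 0.57 ± 0.18 (edgeR adjusted p = 0.0276). Pmvk, the kinase that makes mevalonate diphosphate, had 34.0, 56.6 and 169 CPM in germ-free fat and 24.8, 36.9 and 62.1 CPM in conventional fat, a log2 fold change of 0.68 ± 0.23 (edgeR adjusted p = 0.0379). These calls were less secure: leaving out single libraries in turn ended the Pmvk call in 11 of 21 cases (adjusted p up to 0.121) and the Acat2 call in 6 (up to 0.0862). The libraries whose removal ended the Acat2 call were those behind the lowest overall count of 2 members. They were conventional ZT10 replicate 2, conventional ZT22 replicates 1 and 2, germ-free ZT10 replicate 1, germ-free ZT14 replicate 2 and germ-free ZT18 replicate 2.

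The other 4 genes did not pass over all times. Hmgcs1, which makes HMG-CoA in the cytosol, averaged 273.6 ± 97.3 CPM in germ-free fat and 211.3 ± 48.2 CPM in conventional fat (SD, n = 9 and n = 12), with a log2 fold change of 0.36 ± 0.14 (edgeR adjusted p = 0.0647). Idi1, the isomerase that interconverts isopentenyl and dimethylallyl diphosphate, averaged 14.4 ± 5.06 CPM in germ-free fat and 10.6 ± 3.83 CPM in conventional fat, 0.47 ± 0.19 on the log2 scale (adjusted p = 0.0732). Mvk, mevalonate kinase, averaged 24.5 ± 5.23 CPM in germ-free fat and 21.5 ± 3.42 CPM in conventional fat, 0.22 ± 0.10 on the log2 scale (adjusted p = 0.108). Mvd, the decarboxylase that yields isopentenyl diphosphate, averaged 11.9 ± 9.58 CPM in germ-free fat and 8.43 ± 4.47 CPM in conventional fat, 0.47 ± 0.30 on the log2 scale (adjusted p = 0.260). For each of these 4 genes the difference in means was smaller than the SD of the germ-free libraries. The same was true of Acat2, Pmvk and Fdps, which passed, but not of Fdft1.

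The sources used here do not state the light schedule, so ZT14, ZT18 and ZT22 were treated as the dark phase and ZT02, ZT06 and ZT10 as the light phase. The dark phase held 4 germ-free and 6 conventional libraries. In this phase 10.7% of all genes tested and 8 of the 8 mevalonate genes were higher in germ-free fat, and 8.66% of all genes and 0 of the 8 were lower. The median log2 fold change of the 8 was 0.86, against 0.03 over all genes tested.

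The first steps, from acetyl-CoA to mevalonate diphosphate, behaved as follows in the dark phase. Acat2 stood at 99.9 CPM in germ-free fat at ZT14, 126 CPM at ZT18, and 98.9 and 244.5 CPM at ZT22, against 61.5, 69.6 and 84.8 CPM at the lowest, median and highest of the conventional dark libraries. All 4 germ-free values were above all 6 conventional values, and the log2 fold change was 0.92 ± 0.24 (edgeR adjusted p = 0.0157). Hmgcs1 stood at 183.8 CPM at ZT14, 341 CPM at ZT18, and 253 and 451 CPM at ZT22 in germ-free fat, against 174.1, 188.3 and 198.4 CPM at the lowest, median and highest conventional dark library. The ZT14 value lay within the conventional range and the other 3 lay above it (log2 fold change 0.65 ± 0.19, edgeR adjusted p = 0.0240). Mvk stood at 22.5 CPM at ZT14, 32.1 CPM at ZT18, and 24.7 and 31.5 CPM at ZT22 in germ-free fat, against 17.6, 20.2 and 21.7 CPM in conventional fat. The groups did not overlap, but the size of the difference was the smallest of the 8 (0.48 ± 0.12, edgeR adjusted p = 0.0102). Pmvk stood at 38.5 CPM at ZT14, 80.1 CPM at ZT18, and 67.7 and 169 CPM at ZT22 in germ-free fat, against 26.2, 33.3 and 41.8 CPM in conventional fat. Its ZT14 value again lay within the conventional range (log2 fold change 1.17 ± 0.29, edgeR adjusted p = 0.0144).

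The later steps, from the making of isopentenyl diphosphate to squalene, included both the least abundant transcripts and the largest fold change. Mvd stood at 5.92 CPM at ZT14, 16.9 CPM at ZT18, and 10.4 and 34.9 CPM at ZT22 in germ-free fat, against 4.92, 6.25 and 7.91 CPM in conventional fat. The germ-free values differed among themselves more than the groups differed in median, and the log2 fold change was 1.26 ± 0.36 (edgeR adjusted p = 0.0229). Idi1 stood at 9.29 CPM at ZT14, 17.1 CPM at ZT18, and 13.8 and 25.3 CPM at ZT22 in germ-free fat, against 6.33, 8.39 and 12.2 CPM in conventional fat (0.81 ± 0.25, edgeR adjusted p = 0.0366). As with Mvd, the ZT14 value was within the conventional range. Fdps stood at 20.5 CPM at ZT14, 37.8 CPM at ZT18, and 32.3 and 84.9 CPM at ZT22 in germ-free fat, against 12.2, 16.0 and 17.4 CPM in conventional fat. The groups did not overlap, and the fold change was the largest of the 8 (1.37 ± 0.35, edgeR adjusted p = 0.0145). Fdft1 stood at 107.7 CPM at ZT14, 104.8 CPM at ZT18, and 80.7 and 121 CPM at ZT22 in germ-free fat, against 48.7, 66.5 and 84.6 CPM in conventional fat. It was the only member whose ZT14 value was as high as its ZT18 value, and its log2 fold change was 0.73 ± 0.12 (edgeR adjusted p = 0.00218).

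**Figure D2:**
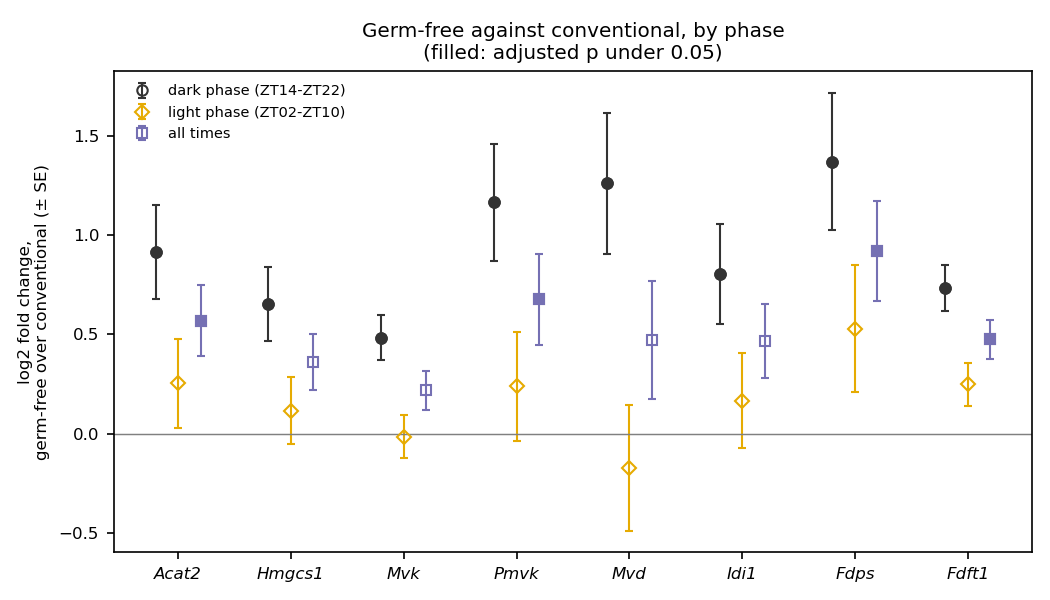
Log2 fold change, germ-free over conventional, of each mevalonate gene in the dark phase (circles), in the light phase (diamonds) and over all times (squares), with bars of 1 SE and filled symbols where the adjusted p was under 0.05. All 8 members are filled in the dark phase and none in the light phase.

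The dark phase calls rested on few libraries. Without germ-free ZT18 replicate 2 the count fell to 1, without conventional ZT22 replicate 2 to 2, and without germ-free ZT22 replicate 2 to 4. For these single removals the share of all genes called is not given here. Without both germ-free libraries together no member passed in the dark phase, and over all times Fdft1 alone passed, at 0.34 ± 0.07 (edgeR adjusted p = 0.00656). The dark phase fold changes then lay between 0.19 for Hmgcs1 and 0.79 for Fdps, all positive, with 1 germ-free library left at ZT14 and 1 at ZT22. Of all 18563 genes tested without them, 5 were higher in germ-free fat in the dark phase, a share of 0.0269%, and 6.62% were higher over all times. With all libraries these shares were 10.7% and 15.2%, so the loss of calls was not particular to the members. The Fdft1 dark phase call held when any single library was left out, with an adjusted p up to 0.0155.

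In the light phase, 2.55% of all genes tested were higher and 2.19% lower in germ-free fat, and 0 of the 8 mevalonate genes passed in either direction, with 1 at an unadjusted p under 0.05 in edgeR (Fdft1, 0.0355) and 0 in DESeq2 after adjustment. The log2 fold changes ran between -0.17 for Mvd and 0.53 for Fdps, with a median of 0.20. Fdps in the light phase stood at 30.6 CPM at ZT02, 45.4 and 31.7 CPM at ZT06, and 43.4 and 18.6 CPM at ZT10 in germ-free fat, against 11.3, 31.7 and 34.0 CPM at the lowest, median and highest of 6 conventional libraries. The groups overlapped widely. Mvd had 14.5 CPM at ZT02, 7.20 and 6.53 CPM at ZT06, and 7.10 and 3.99 CPM at ZT10 in germ-free fat, against 5.02, 8.79 and 17.9 CPM in conventional fat, so that most germ-free values lay below the conventional median.

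The difference between the dark and light effects was itself tested, since a call in the dark and none in the light does not show that they differ. edgeR called 0 of the 8 genes and 0 of all genes tested, and the smallest adjusted p among the 8 was 0.498. DESeq2 called 0 of the 8 and 49 of all genes tested. At an unadjusted p under 0.05 the effect was larger in the dark for 4 of the 8 (Mvk, Pmvk, Mvd and Fdft1), against 3.44% of all genes tested. The largest such difference was that of Mvd, 1.44 ± 0.48 on the log2 scale.

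By time of day, the number of members whose germ-free values all lay above the conventional values was lowest at ZT06 and highest at ZT18 and ZT22. It was 2 of 8 at ZT02, where 42.0% of all genes tested showed the same, 0 at ZT06 (21.3%), 4 at ZT10 (26.5%), 5 at ZT14 (42.1%), 8 at ZT18 (38.1%) and 8 at ZT22 (25.5%). The opposite order was found for Pmvk, Mvd, Idi1 and Fdps at ZT02 and for Acat2 and Mvd at ZT06. Its share of all genes was not counted, so it is not read as a result about these members. With 1 or 2 libraries a group at each time, the share of all genes beside each count is the value to read it against.

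**Figure D3:**
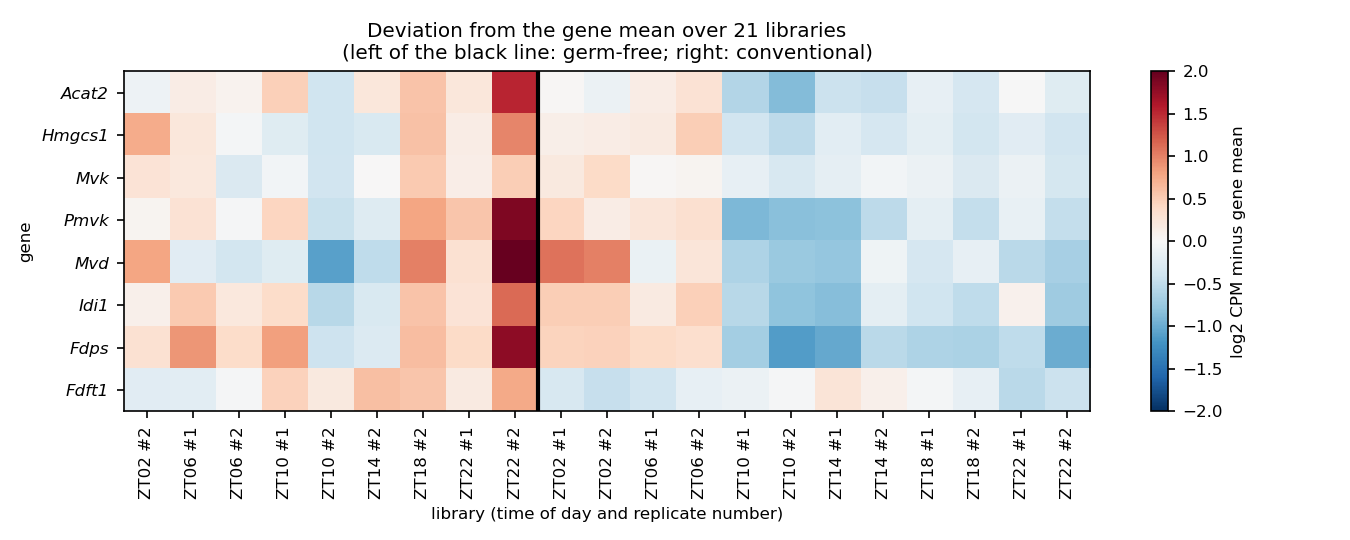
Log2 CPM of each mevalonate gene (down the side) minus its mean over 21 libraries, in each library (along the bottom), with germ-free libraries left of the black line and conventional libraries right of it. Red marks higher and blue lower values. The reddest column is germ-free ZT22 replicate 2, and the conventional columns turn blue at ZT10 and stay so for most members through ZT22.

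The size of the ZT22 and ZT18 differences varied among the enzymes. Germ-free ZT22 replicate 2 exceeded the conventional ZT22 mean by 6.28 times for Mvd, 5.68 times for Fdps and 4.50 times for Pmvk. For Acat2 the ratio was 3.12, for Idi1 2.63, for Hmgcs1 2.44, for Fdft1 2.38 and for Mvk 1.64. Germ-free ZT18 replicate 2 exceeded the conventional ZT18 mean by between 1.58 times (Fdft1) and 2.38 times (Mvd). The highest conventional values at any time were mostly those of the morning. For 7 of the 8 members germ-free ZT18 replicate 2 lay above every conventional library, Mvd being the exception. The share of all genes in that order was not counted.

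Within conventional fat most members were high in the morning and low from ZT10 on, but Acat2, Mvd and Fdft1 departed from this. Acat2 climbed again from a mean of 51.5 CPM at ZT10 to 78.4 CPM at ZT22, against 82.6 CPM at ZT02. Mvd averaged 17.5 CPM at ZT02 but stood at 7.66 and 9.92 CPM at ZT06, against up to 7.91 CPM later. Fdps stood at 33.4 and 34.0 CPM at ZT02, 32.1 and 31.2 CPM at ZT06, 15.5 and 11.3 CPM at ZT10, 12.2 and 17.0 CPM at ZT14, 16.1 and 15.9 CPM at ZT18, and 17.4 and 12.4 CPM at ZT22. The mean of the ZT02 and ZT06 libraries was 2.22 times that of the later ones for Fdps, 2.16 times for Mvd, 1.83 for Idi1, 1.75 for Pmvk, 1.48 for Hmgcs1, 1.38 for Acat2 and 1.29 for Mvk. For Fdft1 it was 0.855, with its highest conventional values, 84.6 and 76.4 CPM, at ZT14. All ZT02 and ZT06 values lay above all later values for 5 of the 8 (Hmgcs1, Mvk, Pmvk, Idi1 and Fdps), a split of the times chosen after seeing the values and shown by 1.17% of all genes tested. In germ-free fat the highest value was in ZT22 replicate 2 for every member except Mvk, which was highest in ZT18 replicate 2. How many of all genes had their highest germ-free value in these libraries was not counted. Germ-free Fdps stood at 30.6 CPM at ZT02, 45.4 and 31.7 CPM at ZT06, and 43.4 and 18.6 CPM at ZT10. It stood at 20.5 CPM at ZT14, 37.8 CPM at ZT18, and 32.3 and 84.9 CPM at ZT22. The higher values of ZT06 and ZT10 thus lay above that of ZT18.

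A 24 h cosine fitted within each group gave the corresponding tests of rhythm. In germ-free fat 3 of the 8 passed, against 4.52% of all genes tested. Hmgcs1 had an amplitude of 0.56 on the log2 scale and a fitted peak at ZT 23.1 (edgeR adjusted p = 0.0191), Mvd an amplitude of 1.07 and a peak at ZT 21.9 (adjusted p = 0.0240), and Fdft1 an amplitude of 0.44 and a peak at ZT 16.5 (adjusted p = 0.0174). In conventional fat edgeR called 0 of the 8, against 0.796% of all genes tested, while 6 were at an unadjusted p under 0.05 (13.9% of all genes) and DESeq2 called 3 (4.45% of all genes). The fitted conventional peaks of the 7 genes other than Fdft1 lay between ZT 1.74 and ZT 3.97, and that of Fdft1 at ZT 13.1. The germ-free peaks of those 7 genes lay between ZT 20.2 and ZT 23.8.

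The test of the difference in rhythm between the groups called 0 of the 8 and 0 of all genes in edgeR, and 0 of the 8 and 48 of all genes in DESeq2. At an unadjusted p under 0.05 it held 4 of the 8, against 7.59% of all genes tested. The germ-free rhythm calls moved with single libraries. Without germ-free ZT22 replicate 2 the adjusted p was 0.103 for Hmgcs1 and 0.152 for Mvd, and without germ-free ZT06 replicate 1 it was 0.0613 for Fdft1. Leaving out germ-free ZT10 replicate 2 left a count of 1. A fit with each time as its own level, in place of the cosine, called none of the 3 in germ-free fat (adjusted p of 0.0629 for Hmgcs1, 0.0767 for Mvd and 0.0777 for Fdft1). Of all genes tested that fit called 522 in germ-free fat, against 828 with the cosine.

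Because the members moved together in the dark phase, their promoters are shown for the genes that differed in how they are built. Sequences were matched in RefSeq for GRCm38.p6 for 6 of the 8 members (Acat2, Hmgcs1, Mvk, Pmvk, Mvd and Idi1). The 250 bases before each gene's RefSeq start were searched on both strands. For Acat2 and Idi1 that start lay inside the gene span given above. The search was for the sterol regulatory element core TCACNCCAC, the NF-Y box CCAAT, the Sp1 box GGGCGG and the E-box CACGTG. Capitals mark matches on either strand.
Hmgcs1, chr13:119690101-119690350, plus strand: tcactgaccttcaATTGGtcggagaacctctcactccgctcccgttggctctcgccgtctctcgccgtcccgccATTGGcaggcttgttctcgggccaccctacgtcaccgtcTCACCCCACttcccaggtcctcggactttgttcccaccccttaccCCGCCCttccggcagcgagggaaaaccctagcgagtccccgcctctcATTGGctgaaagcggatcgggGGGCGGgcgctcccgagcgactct
Mvd, chr8:122443423-122443672, minus strand: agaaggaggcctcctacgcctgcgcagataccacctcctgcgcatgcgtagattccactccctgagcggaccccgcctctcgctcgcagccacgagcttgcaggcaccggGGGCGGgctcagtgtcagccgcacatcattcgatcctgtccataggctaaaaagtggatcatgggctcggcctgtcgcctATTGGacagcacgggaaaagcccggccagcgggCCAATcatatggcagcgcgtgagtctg
Acat2, chr17:12960726-12960975, minus strand: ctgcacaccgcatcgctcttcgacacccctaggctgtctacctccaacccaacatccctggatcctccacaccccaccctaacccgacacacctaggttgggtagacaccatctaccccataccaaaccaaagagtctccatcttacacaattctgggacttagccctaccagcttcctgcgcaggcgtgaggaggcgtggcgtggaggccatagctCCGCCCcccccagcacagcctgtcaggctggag
Mvk to Mmab interval, chr5:114444061-114444268, plus strand: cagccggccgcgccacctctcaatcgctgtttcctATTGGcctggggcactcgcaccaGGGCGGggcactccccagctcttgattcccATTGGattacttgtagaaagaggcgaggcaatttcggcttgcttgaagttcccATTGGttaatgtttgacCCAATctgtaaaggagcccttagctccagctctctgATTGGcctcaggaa

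The Hmgcs1 window, just upstream of the gene at chr13:119690379-119708260, was the only one of the 6 genes to hold TCACNCCAC, which 1.05% of all 32851 promoter windows of that length held. The match lay 137 bases before the start, between CCAAT matches at 176 and 45 bases. CCAAT, found in 33.8% of all windows, occurred 5 times in the Mvk window, 3 times in that of Hmgcs1 and 2 times each in those of Mvd and Idi1. The first of the 2 RefSeq starts of Pmvk had 1 match, and Acat2 had none. GGGCGG, found in 32.7% of all windows, occurred in the windows of Acat2, Hmgcs1, Mvk, Mvd and Idi1. CACGTG was in 6.02% of all windows. These matches describe the letters only, and their part in the results was not tested.

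The Mvk interval is shown because Mvk, at chr5:114444269-114460591 on the plus strand, and Mmab, on the minus strand, start 209 bases apart and share these 208 bases. Mmab encodes the adenosyltransferase that prepares cobalamin for methylmalonyl-CoA mutase. Of 4 genes listed as neighbours (Mmab, Tcp1, Rusc1 and Gtpbp4), Mmab alone passed over all times, at 0.31 ± 0.09 (edgeR adjusted p = 0.0162). Tcp1, Rusc1 and Gtpbp4 neither overlap a member nor start as near to one as Mmab. With 15.2% of all genes tested higher over all times, 1 of 4 is not read as a result about neighbours. Mmab stood at 28.5 CPM at ZT14, 35.4 CPM at ZT18, and 32.8 and 42.6 CPM at ZT22 in germ-free fat, against 21.9, 23.2 and 28.1 CPM at the lowest, median and highest conventional dark library. These values did not overlap, as with Mvk, and the dark phase log2 fold changes were 0.53 ± 0.11 for Mmab and 0.48 ± 0.12 for Mvk. Without germ-free ZT18 and ZT22 replicate 2 together Mmab was not called, over all times (0.21 ± 0.08, edgeR adjusted p = 0.0997) or in the dark phase (0.40 ± 0.13, adjusted p = 0.149). Tcp1 and Rusc1 had log2 fold changes of 0.04 and 0.14 over all times.

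Likeness to the mean profile of the 8 genes was measured over 21 libraries by Pearson's r, among 13529 genes. The libraries share the same groups and times, so r describes the profiles and carries no test. Genes among the 10 most alike were Pcyt2 and Cyp51 (r = 0.964 each), Ube3c (0.961), Lactb2 (0.960), Lss (0.955), Mlx (0.951), Atp6v1g1 (0.950), Tlcd1 (0.949) and Psph (0.946). Cyp51 and Lss, lanosterol demethylase and lanosterol synthase, belong to the sterol arm that follows squalene, and Pcyt2 makes the activated ethanolamine for phosphatidylethanolamine. The mean z-score of the 8 genes was 2.41 in germ-free ZT22 replicate 2, the highest of the 21 libraries, and 1.29 in germ-free ZT18 replicate 2, the next highest. Over the 19 libraries without these, Pcyt2 and Cyp51 still ranked first and next (r = 0.945 and 0.928), and Mlx and Atp6v1g1 ranked 11 and 15.

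The sterol arm, the 12 enzymes from squalene to cholesterol, was counted in the same fits. Over all times 6 of 12 rose and 0 fell (median log2 fold change 0.49), where 15.2% of all genes tested rose. In the dark phase 11 of 12 rose, with a median of 0.83, where 10.7% of all genes tested rose. Without germ-free ZT18 and ZT22 replicate 2 together, 4 of 12 were higher over all times and 0 in the dark phase. The shares of all genes in that fit were 6.62% and 0.0269%. The medians of the list were then 0.29 and 0.48, and Cyp51 was no longer called (0.66 ± 0.22, edgeR adjusted p = 0.0672). Cyp51 rose by 1.08 ± 0.30 on the log2 scale (edgeR adjusted p = 0.0164). Lbr and Tm7sf2, both sterol reductases, rose by 0.19 ± 0.04 and 0.61 ± 0.15. Sqle, squalene epoxidase, which takes the product of Fdft1, did not pass over all times (0.69 ± 0.25, edgeR adjusted p = 0.0531), nor did Sc5d (0.49, adjusted p = 0.0901). In the dark phase the lone exception was Ebp (0.12, adjusted p = 0.449).

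**Figure D4:**
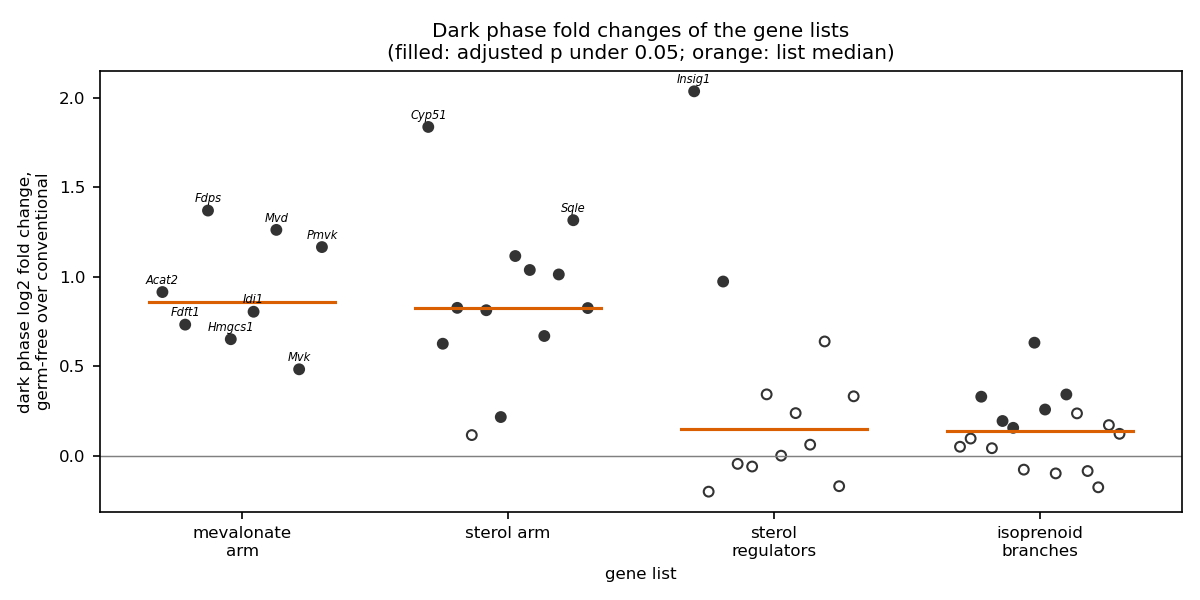
Dark phase log2 fold change, germ-free over conventional, of each gene in the mevalonate arm and in 3 related lists; each circle is a gene, filled where the adjusted p was under 0.05, and orange bars are list medians. The median bars stand at 0.86 for the mevalonate arm and 0.83 for the sterol arm and at 0.15 or lower for the other lists.

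Among 12 genes that sense or regulate sterols, 2 rose over all times and 0 fell, a share near the 15.2% of all genes tested, and the list's median log2 fold change was 0.08. Insig1 rose by 1.15 ± 0.30 (edgeR adjusted p = 0.0101). In the dark phase Insig1 stood at 292.6 CPM at ZT14, 722 CPM at ZT18, and 535 and 1188 CPM at ZT22 in germ-free fat, against 108.8, 162.7 and 202 CPM at the lowest, median and highest conventional library. All 4 germ-free values lay above the conventional range, and the log2 fold change of 2.04 ± 0.33 (edgeR adjusted p = 0.00228) was numerically above that of each of the 8 mevalonate genes. Without germ-free ZT18 and ZT22 replicate 2 together it was 1.48 ± 0.31 in the dark phase (edgeR adjusted p = 0.0670) and 0.78 ± 0.22 over all times (adjusted p = 0.0330). In that fit 2 of the 12 genes were still higher over all times, where 6.62% of all genes tested were higher. Mylip, a ubiquitin ligase, rose over all times (0.36 ± 0.10, adjusted p = 0.0126). Srebf2, which encodes SREBP-2, did not pass (-0.24 ± 0.09 on the log2 scale, adjusted p = 0.0696), nor did Nr1h3, which encodes the oxysterol receptor LXRα (0.18, adjusted p = 0.0511).

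Of 16 genes on the branches that use farnesyl or geranylgeranyl groups, 5 rose over all times and 0 fell, where 15.2% of all genes tested rose, and the median log2 fold change was 0.10. Icmt, which methylates prenylated proteins, rose by 0.23 ± 0.03 (edgeR adjusted p = 0.000349) and was the only gene of the list to pass in the light phase. Fnta, a prenyltransferase subunit, rose by 0.26, Rabggta, which serves Rab proteins, by 0.27, and Pdss1, which builds the ubiquinone tail, by 0.37. Ggps1, which elongates the product of Fdps, stood at 0.10 on the log2 scale (adjusted p = 0.0501) and did not pass. In the dark phase 6 of the 16 rose, where 10.7% of all genes tested rose. Without germ-free ZT18 and ZT22 replicate 2 together, 2 of the 16 (Icmt and Fnta) were higher over all times and 0 in the dark phase. Of all genes tested in that fit, 6.62% and 0.0269% were higher.

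Of the paralogues and mitochondrial counterparts of these enzymes, Acat1, the mitochondrial thiolase, rose by 0.28 ± 0.06 on the log2 scale (edgeR adjusted p = 0.00360), with an adjusted p of 0.0537 without germ-free ZT18 and ZT22 replicate 2 together. Oxct1, which transfers coenzyme A from succinyl-CoA to acetoacetate, stood at -0.20 ± 0.07 on the log2 scale and did not pass (adjusted p = 0.0612). Idi2, the paralogue of Idi1, was not tested because its counts were below the filter.

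How reads were assigned bears on some members. The sources used here give neither the strand setting nor the handling of reads that match several places. Of all 100-base stretches of the member's transcripts, 35.3% were shared with genes elsewhere for Acat2 (its tandem paralogue Acat3), 20.0% for Idi1, 18.9% for Fdps and 2.78% for Fdft1, and none for Hmgcs1, Mvk, Pmvk and Mvd. Fdps, the member with the largest fold change, also overlapped the gene model Gm43738 by 7512 bases on the same strand, and 75.8% of its stretches were shared once overlapping genes were counted. Gm43738 itself was not analysed here. Acat3 averaged 3.58 ± 1.30 CPM in germ-free fat and 4.36 ± 1.18 CPM in conventional fat, against 112.8 and 74.2 CPM for Acat2, and its log2 fold change was -0.29 (edgeR adjusted p = 0.182). Fdft1 overlapped Ctsb, a lysosomal protease gene on the opposite strand, by 774 bases, and Ctsb had a log2 fold change of -0.03 over all times. Mvd lay inside the long gene model Gm20388 on the opposite strand, which stood at 0.08 on the log2 scale.

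The libraries also differed in how level depended on gene length. Spearman's rho between exon length and a gene's deviation from its mean over libraries, across 13537 genes, was -0.195 at the median of the germ-free libraries (range -0.332 to 0.203) and 0.139 at the median of the conventional libraries (range -0.0587 to 0.270). It was -0.321 in germ-free ZT18 replicate 2 and -0.272 in germ-free ZT22 replicate 2. The members' exon lengths lay between 1345 and 3505 bases. The 6169 genes tested within that range had a median log2 fold change of 0.07 over all times and 0.09 in the dark phase, against 0.47 and 0.86 for the 8 members. With this length trend as a covariate no member passed over all times or in the dark phase, and the median log2 fold change of the members over all times was 0.03. The share of all genes called in that fit is not given here, so the loss of calls is not shown to be particular to the members. In that fit Fdps stood at 0.18 ± 0.34 on the log2 scale, a wider error than the 0.25 without the covariate. The part of the trend in the results was not tested further.

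Markers of other cell types were measured beside these results. All 10 liver markers were detected, and their sum ran from 40.8 to 476 CPM in germ-free libraries and from 24.5 to 659 CPM in conventional libraries. In the libraries with the highest mevalonate transcripts it was 40.8 CPM (germ-free ZT22 replicate 2) and 50.5 CPM (germ-free ZT18 replicate 2), at or below the germ-free median. Steroidogenic markers summed to between 4.38 and 9.72 CPM in germ-free libraries and between 4.31 and 8.89 CPM in conventional libraries. Epididymal epithelium markers, 8 genes of which 3 passed the filter, summed to 399 CPM in germ-free ZT22 replicate 2 and 330 CPM in germ-free ZT22 replicate 1, against a median of 10.9 CPM in germ-free libraries and 3.61 CPM in conventional libraries (range 0.611 to 37.4 CPM). In germ-free ZT18 replicate 2 the sum was 2.70 CPM. Ciliated duct markers, all 10 detected, summed to 539.8 CPM in germ-free ZT22 replicate 1, against medians of 54.6 CPM in germ-free libraries and 85.2 CPM in conventional libraries. Accessory gland markers, 6 genes of which 1 passed the filter, summed to 1520 CPM in conventional ZT10 replicate 2 and to at most 3.81 CPM in germ-free libraries. That conventional library is among those whose removal ended the Acat2 call over all times. With the summed liver markers as a covariate 4 members rose over all times and 3 were rhythmic in germ-free fat. In the dark phase 7 rose, and Idi1 was not called (edgeR adjusted p = 0.0536). The share of all genes called in that fit is not given here. The part of the other markers in the results was not tested beyond leaving libraries out.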

How the data were processed

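RNA of epididymal fat was sequenced as stranded total RNA after removal of ribosomal RNA, per the labels' protocols. The authors deposited raw read counts over exons for each gene in each library, with the exon length. The submitters' processing notes name STAR 2.4.0i and the genome build mm10. The sources used here give no counting program, no annotation release and no setting for strand or for reads with several matches. Groups were taken from the labels.

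Genes with low counts were removed with edgeR's filterByExpr (minimum count 10). Libraries were scaled by TMM, and CPM is the count after that scaling, in the usual unit of edgeR's cpm function. The quasi-likelihood test of edgeR 4.0.16 (R 4.3.3, robust) was run on all 21 libraries: time of day plus group, group within each phase, and a 24 h cosine within each group. P-values were adjusted by Benjamini-Hochberg over all genes tested, with a threshold of 0.05. Log2 CPM used a prior count of 2. Depth, which sets the precision of low genes, was at least 24388294 counts a library.

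Alternatives were DESeq2 1.42.0, another scaling, no filter on low counts, a replicate block, marker and length covariates, subsets of times and libraries left out. Positions come from the GENCODE annotation of GRCm38. The 8 genes and the related lists were chosen with earlier results of these data known. From each list the text names at most 4 called and at most 2 uncalled genes, those of smallest p, in addition to genes named for a stated value; some of these genes are not reported here. The genes most like the members' profile had a mean log2 CPM of at least 1.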

Additional observations from a re-analysis of the deposited data

Results flagged for a closer look

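In germ-free fat the library of ZT22 replicate 2 stood far from the other 8 germ-free libraries for 4 of the mevalonate genes. It held 244.5 CPM of Acat2 and 168.8 CPM of Pmvk, where the gap to the next library was 0.658 of the whole germ-free range for each. It held 84.86 CPM of Fdps, a gap of 0.595, and 34.88 CPM of Mvd, a gap of 0.583. Each gap was above Dixon's 95% critical value for 9 libraries. The germ-free libraries are of different times of day, the 4 genes share the library, and chance alone passes this limit in about 5% of groups.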

How the results depend on the processing

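Over all times 4 members rose. The count was 2 with no filter on low counts, 2 without the libraries high in liver markers, 1 without germ-free ZT18 and ZT22 replicate 2 together, 0 with only ZT06, ZT10 and ZT22, and 0 with the length trend as a covariate, which also gave a median log2 fold change of 0.0306, 0 members in the dark phase and 1 rhythmic member in germ-free fat. That covariate reversed Mvk (-0.12), Mvd (-0.24) and Idi1 (-0.061). Without both germ-free libraries 0 members passed in the dark phase, 1 was rhythmic in conventional fat and 1 in germ-free fat. DESeq2 found 5 rhythmic members in germ-free fat and 3 in conventional fat, where it called 11.1% and 4.45% of all genes, and 6 higher over all times (15.8% of all genes). Time as a 6-level factor and the removal of the libraries high in liver markers each gave 0 rhythmic members in germ-free fat. Leaving out single libraries gave 2 to 6 members over all times, medians of 0.37 to 0.59, 1 to 8 members in the dark phase, 0 to 1 rhythmic in conventional fat and 1 to 4 in germ-free fat. The cause of these changes was not tested. Where no share of all genes stands beside a count, its fall is not shown to be particular to the members. The alternatives that leave out sets of libraries were chosen after seeing the data.

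Replicate numbers were not treated as pairs. Deviations of same-numbered libraries from their group means correlated at 0.503 (ZT06), 0.150 (ZT10) and -0.290 (ZT22). With 2 libraries a group the deviations mirror each other, so each time gives 1 value. These values cannot settle whether the numbers pair the samples. With the replicate block 3 members rose over all times (Pmvk adjusted p = 0.0508), 8 in the dark phase, and 3 were rhythmic in germ-free fat. With 1 germ-free library at ZT02, ZT14 and ZT18, differences at those times have no replicate spread in that group.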
